A study of Rattus norvegicus with 140 samples.

Results

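The genes described here are 10 that heart muscle is known to switch on under load or injury: the natriuretic peptide genes Nppa and Nppb, the sarcomere genes Myh7 and Acta1, the titin-linked Ankrd1, the intercalated disc gene Xirp1, the calcineurin regulator Rcan1, the matrix signalling genes Ccn1 and Ccn2, and the receptor gene Tnfrsf12a. They were chosen by symbol, taking every transcript ID of the array that its annotation pairs with 1 of these genes and no other. All 10 genes were found, through 12 IDs, of 17245 gene symbols and 29214 IDs on the array. Xirp1 has 3 IDs and its values are those of the ID with the highest mean in heart, 10920977, unless another is named.

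Male Fischer 344 rats aged 2 to 3 months, each carrying a telemetry transmitter, were warmed awake at 37.0°C until the core reached 41.8°C, the point called TcMax, and were killed then or after 24 or 48 h back at room temperature. Unheated controls of the same strain, sex, age and implant were killed at the matching times, and the labels say that these rats were briefly in the incubator at ambient temperature while the published methods say that they never entered it. Heart, liver, kidney and lung gave 140 arrays. The heart comparisons rest on 5 heated and 6 control rats at TcMax, 6 and 6 at 24 h, and 5 and 6 at 48 h. The model gives a single exposure in young male rats of an inbred strain, and the labels do not give which rats had cardiac lesions.

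Values are microarray intensities in arbitrary units. A difference is heated minus control on the log2(intensity + 16) scale with its standard error (SE), and a gene is said to have risen or fallen where its adjusted p was under 0.05 and the change at least 2-fold. The offset of 16 shrinks the changes of dim genes. In tissue, fewer cells of a type and less RNA per cell cannot be told apart. The number of arrays limits the precision.

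The array labelled 48 h heated heart replicate 4 was left out of all heart results unless stated, because its markers go against its label. The summed intensity of 10 cardiomyocyte markers was 677 on it and 24300 to 56900 on the other 34 hearts, while the sum of 9 lung epithelial markers was 49300 on it and at most 373 on the others. On this array Nppa read 14.1, Nppb 13.1, Myh7 8.64 and Xirp1 7.14, all near the bottom of the scale. Among the unheated hearts, none of the 9 genes tested differed between the 3 times, where 0%, 0.644% and 1.18% of all IDs did (24 h against TcMax, 48 h against TcMax and 48 h against 24 h).

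Before birth the ventricle makes atrial and brain natriuretic peptide, slow myosin heavy chain and skeletal alpha actin at high levels, and after birth these genes are turned down as the adult forms take over. Stretch, pressure load, ischemia and injury turn them up again in the adult ventricle, which is why the group is called the fetal program. Other members answer within minutes to hours: Ccn1 and Ccn2 are immediate early genes of secreted matrix proteins driven by the YAP and TEAD factors and by SRF, Tnfrsf12a encodes Fn14, the receptor for the cytokine TWEAK, and Rcan1 is a target and a feedback inhibitor of calcineurin and NFAT signalling. Ankrd1 and Xirp1 encode muscle proteins of the titin filament and of the intercalated disc that rise with stretch.

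Promoter windows from RefSeq (GRCr8, 250 bases before to 50 after a transcript start) were in hand for 9 of the 10 genes. They are shown for the 6 genes called in heart, Nppb, Acta1, Xirp1, Ccn1, Ccn2 and Tnfrsf12a, and for Rcan1, so that the letters can be read beside the time courses. Capitals mark letters that matched a motif on either strand: heat shock element (GAANNTTC or TTCNNGAA), AP-1 (TGACTCA or TGAGTCA), TEAD (GGAATG), CRE (TGACGTCA), CArG box, E-box (CACGTG) or TATA box (TATAAA).
Nppb, chr5:163699758-163700057, plus strand: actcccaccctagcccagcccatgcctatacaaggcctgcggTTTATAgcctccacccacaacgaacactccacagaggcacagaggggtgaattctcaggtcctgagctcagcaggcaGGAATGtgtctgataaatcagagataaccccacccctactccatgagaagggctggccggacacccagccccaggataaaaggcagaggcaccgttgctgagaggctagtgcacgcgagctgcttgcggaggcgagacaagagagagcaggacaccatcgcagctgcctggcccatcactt
Acta1, chr19:68784145-68784444, minus strand: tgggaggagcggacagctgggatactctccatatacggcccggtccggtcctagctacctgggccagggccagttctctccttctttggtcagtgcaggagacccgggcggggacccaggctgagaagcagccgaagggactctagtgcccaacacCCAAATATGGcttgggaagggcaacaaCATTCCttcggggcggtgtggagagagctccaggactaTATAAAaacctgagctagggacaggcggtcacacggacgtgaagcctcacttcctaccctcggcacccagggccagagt
Xirp1, chr8:128634962-128635261, minus strand: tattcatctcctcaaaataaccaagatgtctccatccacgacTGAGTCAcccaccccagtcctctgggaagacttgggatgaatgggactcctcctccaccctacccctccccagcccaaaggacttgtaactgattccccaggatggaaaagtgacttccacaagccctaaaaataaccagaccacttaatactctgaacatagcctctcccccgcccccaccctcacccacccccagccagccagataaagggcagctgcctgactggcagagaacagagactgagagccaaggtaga
Rcan1, chr11:45118187-45118486, minus strand: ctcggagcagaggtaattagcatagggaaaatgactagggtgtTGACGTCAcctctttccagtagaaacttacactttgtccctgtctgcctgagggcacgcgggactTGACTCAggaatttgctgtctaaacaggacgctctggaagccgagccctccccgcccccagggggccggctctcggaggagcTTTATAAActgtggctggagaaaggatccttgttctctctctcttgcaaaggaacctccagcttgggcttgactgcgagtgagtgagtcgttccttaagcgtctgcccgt
Ccn1, chr2:237225640-237225939, minus strand: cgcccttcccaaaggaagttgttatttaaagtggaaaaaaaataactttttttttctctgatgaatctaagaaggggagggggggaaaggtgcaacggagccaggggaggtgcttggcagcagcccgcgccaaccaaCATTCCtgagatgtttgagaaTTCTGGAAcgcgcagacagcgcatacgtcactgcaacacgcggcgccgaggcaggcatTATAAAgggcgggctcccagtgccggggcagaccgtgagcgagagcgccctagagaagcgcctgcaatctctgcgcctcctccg
Ccn2, chr1:22624565-22624864, minus strand: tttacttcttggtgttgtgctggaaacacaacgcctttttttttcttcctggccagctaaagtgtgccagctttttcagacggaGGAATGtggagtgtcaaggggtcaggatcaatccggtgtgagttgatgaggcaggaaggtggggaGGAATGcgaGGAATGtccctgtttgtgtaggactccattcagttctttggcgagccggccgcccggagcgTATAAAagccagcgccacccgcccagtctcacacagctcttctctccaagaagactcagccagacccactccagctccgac
Tnfrsf12a, chr10:13213599-13213898, minus strand: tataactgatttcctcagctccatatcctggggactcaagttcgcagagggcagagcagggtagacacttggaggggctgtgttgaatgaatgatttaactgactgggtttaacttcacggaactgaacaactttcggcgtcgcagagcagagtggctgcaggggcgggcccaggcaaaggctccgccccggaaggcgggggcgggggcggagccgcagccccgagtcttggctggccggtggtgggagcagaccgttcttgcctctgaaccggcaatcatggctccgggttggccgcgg

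The TEAD letters stood in the windows of 4 of the 9 genes, Nppb, Acta1, Ccn1 and Ccn2, and in 14.2% of the 33465 windows of the rat genome. Ccn2 held them 3 times, from -166, -101 and -92 counted from the transcript start. The heat shock element was in 1 window, that of Ccn1 from -92, against 15.8% of all windows. AP-1 letters were in the windows of Xirp1 from -208 and Rcan1 from -142, against 4.63% of all, and the CRE was in that of Rcan1 from -207, against 1.83%. The CArG box, the letters bound by SRF, was in the window of Acta1 from -94, against 1.64% of all. TATA letters were in 6 windows, against 14.2% of all, and the E-box was in none, against 6.42%. The Tnfrsf12a window held none of these letters. In Rcan1, 2 TATA matches on opposite strands overlap. The Rcan1 window lies inside the annotated span of the gene, at an internal start. A match is a run of letters and was not tested as a binding site.

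In the heart at TcMax, 5 of the 9 genes tested had risen and none had fallen, where 1.64% of all IDs tested had risen and 0.383% had fallen. They were Ccn1 and Ccn2, the receptor gene Tnfrsf12a, the natriuretic peptide gene Nppb and Xirp1, from 2.66-fold for Xirp1 to 12.8-fold for Ccn1. In each of these 5 genes every heated heart read above every control heart, which 2.85% of all IDs tested showed. Acta1 and Rcan1 were higher by less than 2-fold with an adjusted p under 0.05, and Nppa and Myh7 were not called.

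**Figure D1:**
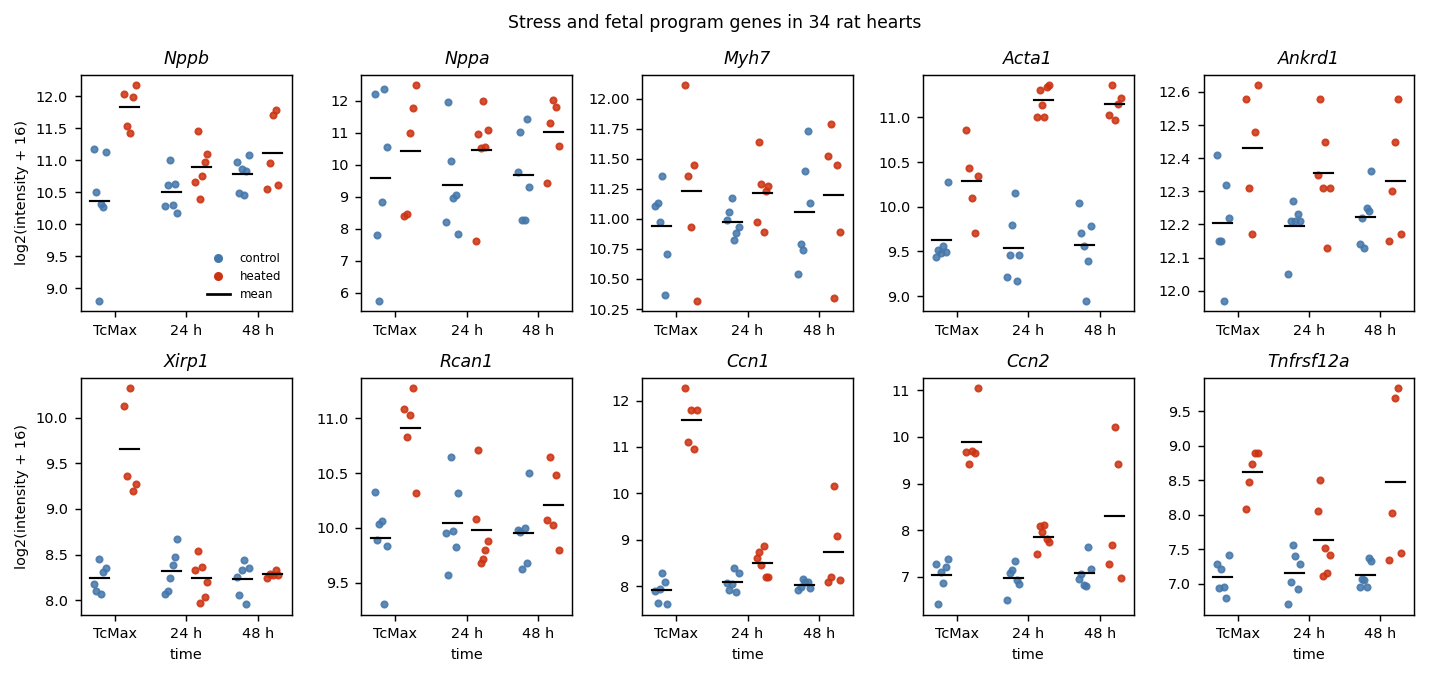
Level of each gene, log2(intensity + 16), in the 34 hearts used, by time, with 1 point for each rat, blue for controls and red for heated rats, and black lines for group means. Ccn1, Ccn2, Xirp1, Tnfrsf12a and Nppb stood apart at TcMax, Acta1 stood apart at 24 h and 48 h, and Nppa overlapped at each time.

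Ccn1, which encodes the matrix protein CYR61, read 4870, 2180, 3560, 1970 and 3520 in the 5 heated hearts at TcMax and from 181 to 294, with a median of 225, in the 6 controls. The lowest heated heart was thus above the highest control, and the groups were far apart. The difference was 3.67 ± 0.25, or 12.8-fold (adjusted p = 1.19e-13), the 10th largest rise among the IDs tested. Ccn2, which encodes connective tissue growth factor, read 798, 663, 810, 785 and 2090 against 69.7 to 152, median 127, a difference of 2.85 ± 0.36, or 7.20-fold (adjusted p = 3.58e-07). Heated replicate 5 stood above the other 4, and it also had the highest fibroblast and smooth muscle marker sums of the heated TcMax hearts, 13100 and 6850, against at most 9340 and 1390 in the other heated hearts of that time. The part of those cells in its Ccn2 level was not tested.

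Tnfrsf12a read 254, 339, 408, 460 and 459 in the heated hearts and 95.3 to 156, median 120, in the controls. No heated heart reached down to the controls. The receptor gene rose by 1.51 ± 0.32, or 2.85-fold (adjusted p = 0.001).

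Nppb, the gene of brain natriuretic peptide, which the ventricle releases on stretch, read 4200, 2950, 2750, 4060 and 4580 in the heated hearts and 434 to 2280, median 1350, in the controls. Control replicate 3, at 434, lay far below the other 5 controls, which began at 1220. The rise was 1.47 ± 0.28, or 2.76-fold (adjusted p = 0.000375). With the array labelled 48 h heated replicate 4 in the fit, which widens the shared spread, the same difference had an adjusted p of 0.275. Nppa, the gene of atrial natriuretic peptide, read 324, 338, 2030, 3480 and 5680 in the heated hearts and 38.4 to 5230, median 971, in the controls. The 2 groups covered almost the same range, and the difference of 0.83 ± 0.94 was smaller than its error (adjusted p = 0.786).

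Xirp1, whose protein Xin ties actin to the intercalated disc, read 1110, 643, 1260, 573 and 602 against 253 to 334, median 288. It rose by 1.41 ± 0.16, or 2.66-fold (adjusted p = 6.27e-08). Its other IDs, 10920973 and 10920979, rose by 1.57 ± 0.17 and 1.38 ± 0.18, so the 3 IDs of the gene moved alike. Ankrd1, a cofactor that shuttles between titin and the nucleus, varied too little over the hearts to be among the IDs tested. It read 6120, 5060, 4610, 5700 and 6280 in the heated hearts and 4010 to 5440, median 4650, in the controls, a difference of 0.23 ± 0.10.

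Rcan1 read 2150, 1800, 2080, 2460 and 1260 in the heated hearts and 618 to 1270, median 986, in the controls. Heated replicate 5 overlapped with the controls and the other 4 lay above them. The difference of 0.99 ± 0.21 was 1.99-fold (adjusted p = 0.00118) and so just missed the 2-fold limit. Acta1, skeletal alpha actin, read 1840, 1370, 1080, 820 and 1280 against 679 to 1230, median 711. Control replicate 6 gave the 1230 and the other 5 controls ended at 738, so 5 of 5 heated hearts were above 5 of 6 controls. The difference was 0.66 ± 0.19, or 1.58-fold (adjusted p = 0.0268). Myh7, the slow myosin heavy chain, read 4400, 2620, 1930, 2780 and 1270 against 1300 to 2620, with no separation and a difference of 0.29 ± 0.25 (adjusted p = 0.674).

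At 24 h the picture was reduced to a single gene. Acta1 had risen 3.15-fold and no other member had risen or fallen, where 0.0205% of all IDs tested had risen and 0.0274% had fallen. That share is 3 of 14607 IDs, and the other two were those of Ankrd2, a titin-linked stretch sensor of slow muscle, and of Fhl1, a LIM protein of the sarcomere. Acta1 read from 2050 to 2610, median 2390, in the 6 heated hearts and from 562 to 1120, median 687, in the 6 controls. Every heated heart was above every control, which 1.01% of all IDs tested showed, and the heated hearts lay close together. The rise was 1.65 ± 0.18 (adjusted p = 1.99e-06), and with the array labelled 48 h heated replicate 4 in the fit its adjusted p was 0.56.

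Skeletal muscle is the tissue in which this actin is the main form. Of 7 matched skeletal muscle markers 6 were tested in heart and 0 were called at any of the 3 times. Among them Myl1 was higher by 0.96 ± 0.36 at 24 h (adjusted p = 0.758) and by 0.95 ± 0.38 at TcMax (adjusted p = 0.154). The rest lay between -0.21 (Myh2) and 0.26 (Tnnt3) at 24 h. The summed intensity of the markers was 404 to 738 in the heated hearts at 24 h and 367 to 504 in the controls. Within the 3 prefixes of the rat tags, which group the rats in the labels, Acta1 was higher in the heated hearts at 24 h by 1.69, 1.16 and 2.00. These values rest on few rats, 2 heated and 4 control, 1 and 1, and 3 and 1.

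Ccn2 was the other gene whose heated and control hearts stood apart at 24 h. It read 162 to 261, median 221, when heated and 75.1 to 145, median 112, in controls, a difference of 0.90 ± 0.34 that was not called (adjusted p = 0.79). Ccn1 read 278 to 448 against 217 to 323, with 4 of 6 heated hearts above all controls, and Tnfrsf12a 122 to 347 against 88.5 to 173. Xirp1 overlapped with its controls again, at 234 to 356 against 254 to 391. Nppb read 1330 to 2800 against 1140 to 2050, and Rcan1 805 to 1650 against 742 to 1590, so that neither stood apart.

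At 48 h Acta1, Ccn2 and Tnfrsf12a had risen, 3 of 9 genes tested, and none had fallen, where 1.70% of all IDs tested had risen and 0.377% had fallen. The 3 genes did so in different ways. Acta1 was raised in 5 of 5 heated hearts by a like amount. The calls of the other two rested on the hearts of replicates 3 and 5.

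Acta1 read 2070, 2610, 1990, 2250 and 2370 in heated replicates 1, 2, 3, 5 and 6 and 480 to 1040, median 782, in the controls. The ranges were apart, which 0.349% of all IDs tested showed at this time. The rise was 1.57 ± 0.19, or 2.97-fold (adjusted p = 2.2e-05). With replicate 4 as labelled, which read 54.2, the difference was 0.73 ± 0.48 (adjusted p = 0.318). Without each of the other arrays in turn the call stood.

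Ccn2 read 139, 189, 1180, 671 and 110 in the same order and 95.6 to 184, median 113, in the controls. Tnfrsf12a read 147, 245, 811, 893 and 159 against 108 to 150, median 117. In both genes replicates 3 and 5 were far above the controls. For Ccn2, replicate 2 lay just above the highest control and replicates 1 and 6 within the range, so 3 of 5 heated hearts were above all controls. For Tnfrsf12a, replicate 2 was clearly above the controls, replicate 6 just above them and replicate 1 within, so 4 of 5 were. The rises were 1.24 ± 0.36 (adjusted p = 0.0397) and 1.35 ± 0.32 (adjusted p = 0.0145). Without replicate 3 they were 0.76 ± 0.31 and 1.04 ± 0.30, and without replicate 5 they were 0.96 ± 0.36 and 1.01 ± 0.30, with adjusted p from 0.143 to 0.379, so neither call held. The Ccn2 call was also lost without 5 of the 6 controls, each in turn, with adjusted p of 0.0621 to 0.0791. It was lost too with all IDs tested (adjusted p = 0.0696), with dim IDs left out (0.0578), with an offset of 1 (0.0673), with quantile normalization (0.0502) and without moderation of the variances (0.0632). With only the 48 h groups in the fit, Ccn2 and Tnfrsf12a each had an adjusted p of 0.39 and Acta1 alone was called. With the array labelled replicate 4 in the fit both were called, at 1.48 ± 0.37 and 1.31 ± 0.30. That array carried the lung markers given above and read 841 for Ccn2. The lungs of 48 h read 419 to 1700 in heated rats and 324 to 584 in controls. The part of lung tissue in these calls was not tested.

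The same 2 hearts stood out in further members. Ccn1 read 1130 and 529 in replicates 3 and 5 and 258 to 277 in the other 3, against 227 to 270 in the controls, and its difference was 0.70 ± 0.25 (adjusted p = 0.0825). Nppb read 3310 and 3500 in them and 1480 to 1960 in the others, against 1390 to 2140 in the controls (0.34 ± 0.28, adjusted p = 0.569). Xirp1, at 287 to 305 in all 5 heated hearts, stayed within the control range of 232 to 331. Myh7 was lowest in replicate 3, at 1280, and 1880 to 3520 in the rest. By the rat tags, the rats of heart replicates 3 and 5 gave lung heated replicates 3 and 4. There Tnfrsf12a read 291 and 451, against 110 to 157 in the other heated lungs of 48 h. Ankrd1 read 920 and 1670 against 240 to 517. Ccn1 read 424 and 905 against 376 to 448, and Ccn2 837 and 1700 against 419 to 843. No member was called in lung at 48 h. In liver and kidney neither rat read highest for Ccn1 or Ccn2.

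**Figure D2:**
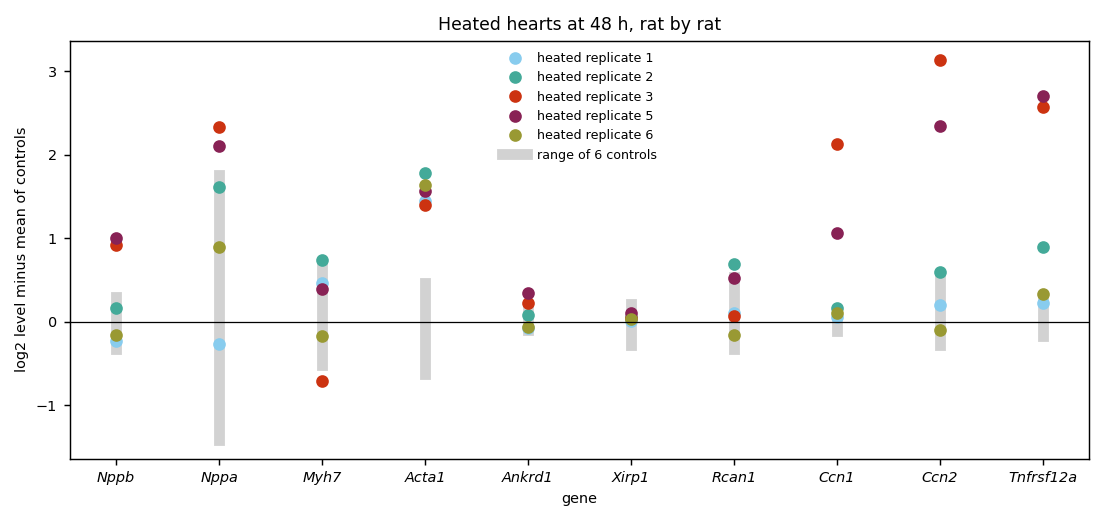
Level of each gene in the 5 heated hearts at 48 h as the log2 difference from the mean of the 6 controls, with 1 colour for each rat and grey bars for the range of the controls. Acta1 is above the controls in 5 of 5 rats, while Ccn1, Ccn2 and Tnfrsf12a are highest in replicates 3 and 5.

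These 2 hearts also differed in their cell type markers. The summed intensity of 8 macrophage markers was 11400 and 13400 in replicates 3 and 5, 1980 to 3800 in the other 3 heated hearts and 1670 to 2490 in the controls. That of 8 fibroblast markers was 21800 and 16100, against 8470 to 10700 and 7890 to 11900. That of 8 neutrophil markers was 1430 and 978, against 132 to 207 and 108 to 207. The cardiomyocyte sums of replicates 3 and 5 were 24300 and 38200, the 2 lowest of the 34 hearts, the others lying at 41600 or above. At 48 h 4 of 8 macrophage markers tested had risen, Cd68, Cd14, Lgals3 and Gpnmb, while Cd163, Csf1r, Adgre1 and Mrc1 were not called. Of 7 fibroblast markers tested 4 had risen, the matrix genes Col1a1, Col1a2, Col3a1 and Postn. Pdgfra (0.08), Lum (0.40) and Tcf21 (-0.10) were not called. Of 6 neutrophil markers tested 2 had risen, Csf3r (1.10, adjusted p = 0.0434) and Fcnb (1.63, adjusted p = 0.0402), and the others had not. Whether neutrophils, macrophages or fibroblasts were more numerous in these hearts was not tested. The part of macrophages, fibroblasts and neutrophils in the levels of Ccn1, Ccn2, Tnfrsf12a and Nppb was not tested either.

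**Figure D3:**
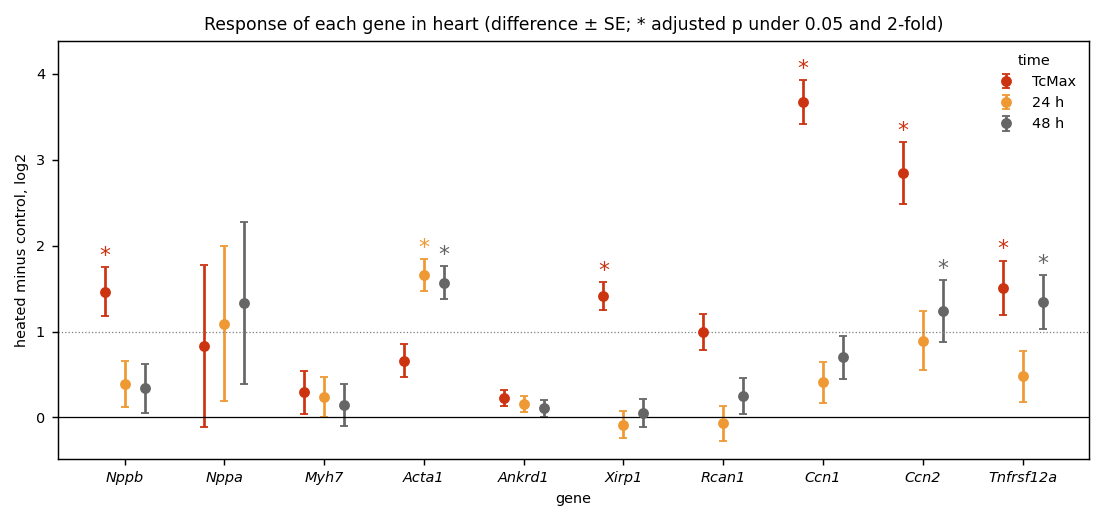
Heated minus control difference of each gene in heart, log2 scale, at TcMax, 24 h and 48 h, with bars of 1 SE and stars for calls. Ccn1 and Ccn2 have the largest differences at TcMax and Acta1 has its largest at 24 h and 48 h, and the dotted line marks a 2-fold change.

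The time courses were compared directly, as the response at 1 time minus the response at another. The TcMax response exceeded that of 24 h for Xirp1, Rcan1, Ccn1 and Ccn2, 4 of 9 genes, where 1.68% of all IDs tested differed in either direction. The excess was 3.26 ± 0.35 for Ccn1 (adjusted p = 2.11e-08), 1.95 ± 0.50 for Ccn2 (adjusted p = 0.0173), 1.50 ± 0.23 for Xirp1 (adjusted p = 2.59e-05) and 1.06 ± 0.29 for Rcan1 (adjusted p = 0.0309). Against 48 h it was 2.97 ± 0.36, 1.61 ± 0.51 and 1.36 ± 0.23 for Ccn1, Ccn2 and Xirp1, where 3.85% of all IDs tested differed, while Tnfrsf12a differed by 0.16 ± 0.45 between those times. The Ccn2 excess over 48 h was near the limit (adjusted p = 0.0479), and it was not called with all IDs tested (0.078) or an offset of 1 (0.0901). The Rcan1 excess over 24 h was not called with an offset of 1 (0.113) or with the prefix of the rat tag as a block (0.0593). Acta1 went the other way, its TcMax response being smaller than that of 24 h by a difference of -0.996 ± 0.27 (adjusted p = 0.026) and than that of 48 h by -0.91 ± 0.27 (adjusted p = 0.036). Both fell just short of a 2-fold change. The 24 h contrast of Acta1 passed it with quantile normalization (-1.08, adjusted p = 0.013) and with the prefix as a block (-1.03, adjusted p = 0.0329). Between 24 h and 48 h no member differed, and 0% of all IDs did.

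Nppa had the widest spread of the 10 genes in 5 of the 6 heart groups, with an SD of 2.60 on the log2 scale in the TcMax controls. It was set against the mean log2 level of 8 atrial muscle markers, since atrial tissue is the main source of this peptide. Over all 34 hearts the Pearson correlation with that level was 0.634 for Nppa and 0.081 for Nppb. The hearts were also cut into 2 clusters at a gap of that level, sought above its median and below the highest hearts. This cut yields 2 clusters in any data. The low cluster held 22 hearts at 6.88 to 8.05 and the high cluster 12 at 8.65 to 10.67. For Nppa the correlation was 0.767 in the high cluster and -0.189 in the low cluster, and for Nppb -0.316 and -0.123. The relation of Nppa to the atrial markers was thus seen in the high cluster and not in the low, whose range of that level is narrower. Sln, which encodes the atrial calcium pump inhibitor sarcolipin, ranged from 13.4 to 7830 over these hearts, and Bmp10, an atrial growth factor gene, from 5.43 to 7120. The highest Nppa values of the controls, 5230 and 4750 at TcMax and 3930 at 24 h, were from the 3 control hearts with the highest atrial marker means (10.58, 9.67 and 10.31). None of the 8 atrial markers was called at any time in heart.

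With the atrial marker mean as a covariate, chosen after the spread of Nppa was seen, the error of the Nppa difference fell from 0.94 to 0.61 at TcMax and from 0.94 to 0.62 at 48 h. Nppa was then not called at TcMax (0.61 ± 0.61, adjusted p = 0.733) or at 24 h (0.29 ± 0.59), and it was called at 48 h (2.32 ± 0.62, adjusted p = 0.0286). Without the covariate the 48 h difference was 1.34 ± 0.94 (adjusted p = 0.458), from 670, 2480, 4110, 3520 and 1520 in the heated hearts and 293 to 2760, median 735, in the controls. Replicates 3 and 5 again read highest. The covariate assumes 1 slope over all hearts, which the clusters did not share, and 5 of 5 heated hearts of 48 h lay in the low cluster, at 6.88 to 7.74, so the 48 h call rests on that slope. Rcan1 at TcMax was then called too (1.02 ± 0.20, adjusted p = 0.000501). The covariate left the calls of Nppb, Acta1, Xirp1, Ccn1, Ccn2 and Tnfrsf12a as they were.

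**Figure D4:**
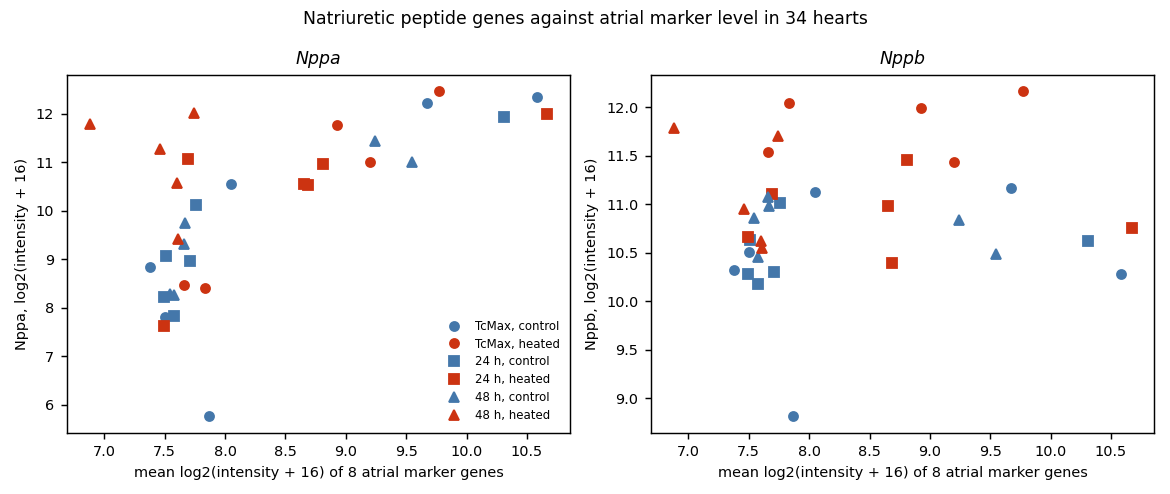
Nppa (left) and Nppb (right), log2(intensity + 16), against the mean level of 8 atrial marker genes on the same scale in the 34 hearts used, with 1 point for each rat, shapes for time and colours for treatment. Nppa is high in the 12 hearts with atrial means of 8.65 or more, and it is spread from low to high among the 22 others, where the heated hearts of 48 h lie.

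Likeness between genes was measured as Pearson's r of log2 levels over the 34 hearts, which share arrays and groups, and is given as a description. Ccn1 was most like Fos (0.980), the AP-1 gene, then Atf3 (0.966), a stress-induced transcription factor gene, and Zfand2a (0.962), a heat-induced gene of an arsenite-inducible protein, with 0.841, 0.619 and 0.674 within groups. Xirp1 was most like the mitochondrial carrier gene Slc25a25 (0.930), then Grtp1 (0.926) and the nuclear receptor gene Nr4a3 (0.921), with 0.702, 0.583 and 0.506 within groups. Ccn2 was most like Dynll1 (0.938), Myc (0.936) and Ch25h (0.933), and Tnfrsf12a like Plaur, the urokinase receptor gene (0.903), Plod2 (0.903) and Creld2 (0.900). Within groups these were 0.817 to 0.898 for Ccn2 and 0.795 to 0.862 for Tnfrsf12a. They were not computed without the heated hearts of 48 h, where replicates 3 and 5 read far above the rest for both genes. Nppb was most like Dynll1 (0.807), Hsp90b1 (0.798) and Utp23 (0.795), and the 3 IDs most like Rcan1 were all of St13 (0.756 to 0.768), a cochaperone gene. Within groups the values were lower, 0.572 to 0.589 for Nppb and 0.501 to 0.523 for Rcan1.

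The slow gene had other companions. Acta1 was most like Fhl4 (0.824), Fhl1 (0.795) and Xirp2 (0.709), but within groups these values were 0.262, 0.224 and 0.112, so that the likeness lay mostly between groups. Ankrd1 was most like Csrp3 (0.834), the gene of muscle LIM protein, and this held within groups (0.863). Its other close genes were Fads3 (0.723) and Mllt11 (0.715), with 0.671 and 0.691 within groups. Nppa was most like Ggh (0.808), Camk1d (0.796) and Vwa5al1 (0.782), with 0.762 to 0.820 within groups. Myh7 had no close partner, the highest being Rflnb at 0.548, Iba57 at 0.539 and G0s2 at 0.527, and 0.547 to 0.558 within groups.

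Among the members themselves, Ccn1 and Ccn2 had an r of 0.899 over all hearts and 0.711 within groups. Without the heated hearts of 48 h the value within groups was 0.250. For Ccn1 and Tnfrsf12a it went from 0.564 to 0.028, and for Ccn2 and Tnfrsf12a from 0.781 to 0.388. Within groups, the r of Acta1 with the other members lay between -0.011 (Tnfrsf12a) and 0.248 (Nppb).

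Genes that act with the members were read in lists. Of the 19 tested genes of a list of further fetal and hypertrophy-associated genes, 3 had risen at TcMax, with a list median of 0.27 where the median of all IDs tested was -0.05. They were Hbegf, a growth factor gene (2.96 ± 0.25, adjusted p = 3.3e-11), Edn1, the endothelin gene (1.54 ± 0.28, adjusted p = 0.000198), and Lmcd1 (1.10 ± 0.16, adjusted p = 3.03e-06). Fhl1 had risen at 24 h (1.10 ± 0.19, adjusted p = 0.00494), and Postn, the matrix protein gene that marks activated fibroblasts (2.15 ± 0.50, adjusted p = 0.0138), Timp1 (1.89 ± 0.47, adjusted p = 0.0187) and Tgfb2 (1.13 ± 0.34, adjusted p = 0.0446) at 48 h. None of these 19 had fallen at any time. Their 48 h calls were not rerun without heated replicate 3 or 5, on which the Ccn2 and Tnfrsf12a calls of that time rested.

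Of 11 tested genes around titin, Bag3, a cochaperone gene of the Z disc, had risen at TcMax (2.38 ± 0.15, adjusted p = 1.58e-14) and Ankrd2 at 24 h (2.40 ± 0.30, adjusted p = 1.64e-05). The Bag3 rise is not particular to heart, since the paper lists this gene as raised at TcMax in liver, kidney and lung too. Of 11 tested targets and parts of the YAP and TEAD pathway, Amotl2 had risen at TcMax (1.22 ± 0.13, adjusted p = 4.19e-09) and Myof at 48 h (1.10 ± 0.32, adjusted p = 0.0384), and the others were not called at any time. The Myof call was not rerun without heated replicate 3 or 5 either. Of 18 tested genes of the adult cardiomyocyte, Pdk4, a brake on glucose oxidation, had risen at TcMax (1.31 ± 0.30, adjusted p = 0.00265) and none had fallen by 2-fold. The median of these 18 was -0.04 at TcMax, -0.11 at 24 h and -0.57 at 48 h, where that of all IDs tested was -0.05, 0.02 and 0.03. At 48 h Ppargc1a, a regulator of mitochondrial genes (-0.87 ± 0.27, adjusted p = 0.0482), and Ckm, muscle creatine kinase (-0.71 ± 0.22, adjusted p = 0.0488), had an adjusted p under 0.05 without a 2-fold change. Replicates 3 and 5 also had the lowest cardiomyocyte marker sums, as given above, and the part of these in the median was not tested. No gene was called at any time among the tested genes of the natriuretic peptide system (9), of calcineurin and NFAT (5), of SRF and its cofactors (9), of the CCN family (2), of TWEAK and TNF receptor signalling (5) or of the intercalated disc (9). For comparison, 2.02%, 0.0479% and 2.08% of all IDs tested were called in either direction at TcMax, 24 h and 48 h. Rises at TcMax in the lists with called genes were not confined to heart. In liver, kidney and lung they numbered 2, 1 and 2 for the fetal and hypertrophy-associated genes and 2, 1 and 1 around titin. They numbered 1, 0 and 1 for YAP and TEAD and 0, 1 and 1 for the adult cardiomyocyte.

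Outside the heart, Nppa, Nppb, Myh7 and Xirp1 were dim. Over all arrays of liver, kidney and lung, Nppa read at most 62.6, Nppb at most 38.7, Myh7 at most 110 and Xirp1 at most 35.8, and these genes either varied too little to be tested in these organs or were not called. Organs were normalized apart, so levels are given side by side and not compared. The highest Acta1 readings of liver, kidney and lung were 62.3, 63.3 and 127, and those of Ankrd1 were 58.0, 44.2 and 1670.

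The matrix signalling genes did rise elsewhere at TcMax. Ccn1 read 519 to 1140 in heated livers against 39.5 to 230 in controls, 756 to 1370 in heated kidneys against 93.9 to 120, and 717 to 1950 in heated lungs against 215 to 321. Its ranges were apart in each of these organs, where the share of all IDs with ranges apart was not counted. Of these, the kidney gave a rise of 3.25 ± 0.18 (9.52-fold, adjusted p = 3.95e-16), the liver of 2.90 ± 0.30 (7.48-fold, adjusted p = 9.7e-10) and the lung of 2.06 ± 0.20 (4.18-fold, adjusted p = 6.87e-10). Ccn2 rose in kidney, from 113 to 303 in controls to 521 to 812 in heated rats (2.06 ± 0.18, adjusted p = 2.97e-11), and in liver, from 14.6 to 46.8 to 55.1 to 106 (1.24 ± 0.19, adjusted p = 4.05e-06). In lung it read 392 to 906 in controls and 515 to 789 in heated rats (0.34 ± 0.23, adjusted p = 0.361).

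Rcan1 rose in kidney, where controls read 123 to 213 and heated rats 320 to 611 (1.50 ± 0.17, or 2.83-fold, adjusted p = 3.31e-08). In liver it read 1030 to 1660 and 1710 to 2300, and in lung 99.1 to 114 and 131 to 282, with ranges apart but changes of 1.44-fold and 1.56-fold. Tnfrsf12a read 88.1 to 197 in heated kidneys against 55.9 to 80.8, a difference of 0.84 ± 0.23 (1.80-fold, adjusted p = 0.00854). Kidney thus had 3 of 7 tested members that rose (1.57% of all IDs tested there), liver 2 of 7 (2.45%) and lung 1 of 8 (1.77%). At 24 h and 48 h no tested member was called in these organs, where the shares of all IDs called in either direction at 24 h and 48 h were 0.24% and 0.0274% for liver, 0.00685% and 0.0137% for kidney, and 0% both times for lung. Some ranges stood apart at 48 h without a call. The share of all IDs with ranges apart was not counted in these organs at any time. In lung they were those of Ccn1 (0.82 ± 0.21, adjusted p = 0.36) and of Acta1, at 107 to 127 in heated rats against 42.0 to 103 in controls (0.40 ± 0.16, adjusted p = 0.659). In kidney it was that of Tnfrsf12a, at 67.4 to 228 against 43.6 to 64.6 (0.62 ± 0.23, adjusted p = 0.688).

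**Figure D5:**
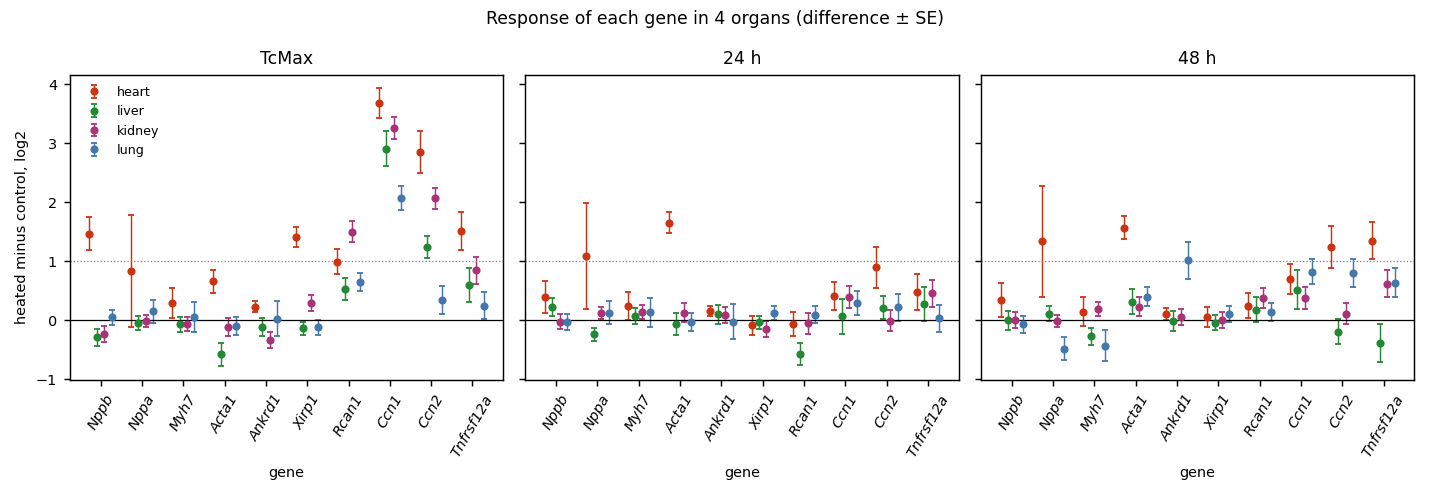
Heated minus control difference of each gene, log2 scale with bars of 1 SE, in heart, liver, kidney and lung at each time, with the dotted line at a 2-fold change. At TcMax Ccn1 is above the line in 4 organs and Nppb and Xirp1 in heart alone, and Acta1 is above it in heart at 24 h and 48 h. Nppa in heart at those times and Ankrd1 in lung at 48 h are also above it but were not called.

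Since the organs came from the same rats, the response of the heart was set against that of each other organ by subtracting the levels within a rat. At TcMax the heart response exceeded that of liver for Nppb (1.76 ± 0.31), Acta1 (1.28 ± 0.26), Xirp1 (1.52 ± 0.21) and Ccn2 (1.69 ± 0.40), where 2.04% of all IDs tested differed in either direction. It exceeded that of kidney for Nppb (1.64 ± 0.31) and Xirp1 (1.16 ± 0.22), where 0.701% differed, and that of lung for Nppb (1.42 ± 0.29), Xirp1 (1.56 ± 0.24), Ccn1 (1.57 ± 0.29), Ccn2 (2.52 ± 0.33) and Tnfrsf12a (1.23 ± 0.30), where 0.857% differed. Their adjusted p ran from 5.74e-06 to 0.017. For Ccn1 the heart was not shown to differ from liver or kidney. The Acta1 excess over liver joins a heart difference of 0.66, itself not called, and a liver difference of -0.58 ± 0.19 (adjusted p = 0.0177). Liver Acta1 is dim, at 38.9 to 62.3 in controls and 29.1 to 43.8 in 5 of the 6 heated livers, and heated replicate 2 read 1.12. With an offset of 1, where dim genes weigh more, the calls of Ccn2 against liver, Xirp1 against kidney, and Nppb and Tnfrsf12a against lung were lost, with adjusted p of 0.145, 0.737, 0.0596 and 0.0617.

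After TcMax, Acta1 was the member whose response was called larger in heart. At 24 h its heart response exceeded that of liver by 1.72 ± 0.25 (adjusted p = 0.000613), of kidney by 1.53 ± 0.22 (adjusted p = 0.000428) and of lung by 1.68 ± 0.22 (adjusted p = 0.000145), where 0.0358%, 0.0156% and 0.0206% of all IDs tested differed. At 48 h it exceeded that of kidney by 1.38 ± 0.23 (adjusted p = 0.0164) and of lung by 1.32 ± 0.24 (adjusted p = 0.0125), where 0.00519% and 0.232% differed. Against liver, over 5 heated and 4 control rats, the 48 h difference was 1.10 ± 0.29 (adjusted p = 0.152) and not called, where 0.0153% differed. With an offset of 1 the Acta1 calls against liver at 24 h (adjusted p = 0.364), kidney at 48 h (0.141) and lung at 48 h (0.0743) were lost, and with quantile normalization that against kidney at 48 h (0.0535). Those against kidney and lung at 24 h held in the 5 alternatives run for these contrasts, which left out no rat. In no organ contrast was a member lower in heart.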

How the data were processed

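RNA from 4 organs of heated and control rats had been hybridised to a whole-transcript rat array from Affymetrix. The deposited values are intensities on a linear scale, which the authors made with the iterPLIER method for each organ apart, in Affymetrix Expression Console 1.1 by the submitters' processing notes. Here log2(intensity + 16) was taken, and all 140 arrays were matched to a group through their labels.

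The 10 genes and the lists of related genes and markers were chosen with earlier results of these data known. Transcript IDs were named where the annotation gives a single gene (18644 of 29214 IDs). In each organ the 50% of IDs with the larger SD (14607) entered a limma fit (limma 3.58.1 under R 4.3.3) that gave every one of the organ's 6 groups its own mean and took heated minus control as the contrast, and p-values were adjusted by Benjamini-Hochberg over all IDs tested. SE of an ID outside the filter came from the same fit on all IDs. Responses were compared between times within this fit and between organs on the differences of levels within a rat, over the IDs that passed the filter in either organ.

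The genes named are the 10, the 3 IDs of other genes most like each of them in heart, and from each list at most 4 genes called in heart at a time. Fhl1, Ankrd2 and the markers were named from the lists. Alternatives were: all IDs tested, a filter on dim IDs, an offset of 1, quantile normalization, a fit of 2 groups, a block for replicate numbers, a block for rat tag prefixes, unmoderated or robust variances, no fold minimum, each array left out, and the left-out heart array kept. An atrial covariate, the split of hearts by atrial marker level and values within prefixes were added after the values were seen. The split was made at the widest gap between the median and the highest hearts. Replicates are separate rats. No 2 arrays held the same values. The fit was tested on simulated data. Promoter windows are RefSeq's (GRCr8, Brown Norway reference). Plots came from matplotlib 3.10.9 (Python 3.11.15).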

Additional observations from a re-analysis of the deposited data

Results flagged for a closer look

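In 21 of 240 sets of arrays (a gene in a group), 1 array stood apart from the others of its group, where chance gives about 1 in 20. In heart these were Nppa at 182 in heated replicate 1 at 24 h (the others 1460 to 4080), Acta1 at 1230 in control replicate 6 at TcMax (679 to 738), Ankrd1 at 4230 in control replicate 1 at 24 h (4720 to 4920) and Ccn2 at 2090 in heated replicate 5 at TcMax (663 to 810). In liver they were Myh7 at 7.24 in control replicate 3 at 24 h and at 9.36 in control replicate 4 at 48 h, Acta1 at 1.12 in heated replicate 2 at TcMax, Ankrd1 at 48.2 in control replicate 6 at 24 h, Rcan1 at 566 in heated replicate 6 at 24 h (1020 to 1320) and Tnfrsf12a at 405 in heated replicate 5 at 24 h (28.8 to 66.7). In kidney they were Ccn2 at 303 in control replicate 6 at TcMax (113 to 150) and Tnfrsf12a at 228 in heated replicate 4 at 48 h (67.4 to 85.3).

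In lung, Nppa read 10.7 in heated replicate 6 at TcMax and 22.0 in heated replicate 1 at 24 h. Acta1 in lung read 49.5 in control replicate 6 at 24 h, 42.0 in control replicate 4 at 48 h and 127 in heated replicate 2 at 48 h, and Xirp1 read 9.71 in control replicate 3 at 48 h. Ccn1 in lung read 905 in heated replicate 4 at 48 h (376 to 448), Ccn2 906 in control replicate 6 at TcMax (392 to 515) and Tnfrsf12a 179 in heated replicate 5 at 24 h (101 to 125).

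The heart response differed between times by a test of the difference for Xirp1 (1.50), Rcan1 (1.06), Ccn1 (3.26) and Ccn2 (1.95) at TcMax against 24 h, and for Xirp1 (1.36), Ccn1 (2.97) and Ccn2 (1.61) at TcMax against 48 h. It was larger in heart than in liver for Nppb (1.76), Acta1 (1.28), Xirp1 (1.52) and Ccn2 (1.69) at TcMax and for Acta1 (1.72) at 24 h. Against kidney it was larger for Nppb (1.64) and Xirp1 (1.16) at TcMax and for Acta1 at 24 h (1.53) and 48 h (1.38). Against lung it was larger for Nppb (1.42), Xirp1 (1.56), Ccn1 (1.57), Ccn2 (2.52) and Tnfrsf12a (1.23) at TcMax and for Acta1 at 24 h (1.68) and 48 h (1.32). All are log2 differences with adjusted p under 0.05 by limma.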

How the results depend on the processing

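Counts of called members in heart were 5, 1 and 3 at TcMax, 24 h and 48 h. With only the 2 groups of a time in the fit the 48 h count was 1 (Acta1). It was 2, with Ccn2 lost, with all IDs tested, dim IDs left out, an offset of 1, quantile normalization or no moderation of variances (adjusted p of Ccn2 0.0502 to 0.0696). With the array labelled 48 h heated replicate 4 kept the 24 h count was 0 and the 48 h count 2 (Acta1 lost). Leaving out each array in turn gave 5 to 6, 1 to 1 and 1 to 3, and 1 was the 48 h count without heated replicate 3 or 5. In liver at TcMax the count of 2 was 1 with dim IDs left out (Ccn2 was then not tested) and 4 without a fold minimum, and in lung at TcMax the count of 1 was 2 without a fold minimum. With an offset of 1 the members whose heart response differed numbered 0 against liver at 24 h, 1 and 0 against kidney at TcMax and 48 h, and 3 and 0 against lung at TcMax and 48 h, the lost members being Acta1 at 24 h and 48 h, Xirp1 against kidney, and Nppb and Tnfrsf12a against lung. Quantile normalization gave 0 against kidney at 48 h (Acta1 lost). The causes were not tested. No direction of a called value was reversed. Same-numbered arrays had correlations of deviations from -0.56 to 0.609, each over 5 or 6 numbers. These are too few to show whether the replicate numbers pair the rats. With the replicate number as a block the heart counts were 6 (Rcan1 added), 1 and 3, and the counts in liver, kidney and lung were the same as without it. Dim genes outside heart, at medians of 5.58 to 25.6 for Nppa, Nppb, Myh7 and Xirp1, limit what could be seen there.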
